A study of Mus musculus with 35 samples.

Results

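Oxidative phosphorylation is the step in which mitochondria turn the energy of food into ATP, and it is carried out by 5 protein complexes in their inner membrane. The genes described here encode the nuclear part of those complexes. They were chosen by name, as every symbol of the count table that follows the naming of the complex I subunits (Nduf a, b, c, s and v), the succinate dehydrogenase subunits (Sdh), the complex III subunits (Uqcr), the complex IV subunits (Cox4 to Cox8) or the ATP synthase subunits (Atp5), without processed pseudogenes. The rule used no measured value and found 83 of 32544 genes, of which 36 belong to complex I, 4 to complex II, 8 to complex III, 18 to complex IV and 17 to complex V. The table uses older symbols, so Atp5k, Atp5h, Atp5j and Atp5g1 to Atp5g3 are the genes now called Atp5me, Atp5pd, Atp5pf and Atp5mc1 to Atp5mc3. A few names follow history rather than function. Ndufa4 is now counted with complex IV, Cox7a2l helps to join complexes into supercomplexes, and Atp5sl is today known as the complex I assembly factor Dmac2.

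RNA came from the hippocampus of young adult male C57BL/6JOlaHsd mice that had received kainic acid (KA), a glutamate receptor agonist that triggers status epilepticus, into the amygdala, or PBS by the same route. Mice given KA also received the sedative lorazepam, by the study's methods, and whether PBS mice did is not stated there. Animals were examined 24 h after injection, in the wake of status epilepticus, or at 2 weeks, when this model has spontaneous seizures. From a mouse, total RNA (input), RNA pulled down with an antibody against N6-methyladenosine (m6A), or both were sequenced. Each library came from 1 mouse, and mice given PBS were the controls.

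Input libraries with at least 100000 counts came from 3 KA mice (67, 98 and 8) and 1 PBS mouse (1) at 24 h, and from 6 KA and 3 PBS mice at 2 weeks. The other 3 input libraries, all at 24 h, held 3171 to 34486 counts and were not used. The m6A libraries came from 5 KA and 3 PBS mice at 24 h and from 6 KA and 5 PBS mice at 2 weeks, and 13 mice had both kinds. The 13 input libraries held 3057578 to 12694434 counts and the 19 m6A libraries 1652933 to 34564536. The assay is named in the columns of 8 libraries only, and for the other 27 it was read from the form of the column name, which is an inference. KA mouse 8 at 24 h stood apart, since mitochondrially encoded RNA made up 17.4% of its input counts against 1.62 to 6.45% in the other input libraries of that time. All 6 markers of excitatory neurons, among them Slc17a7 and the dentate granule cell gene Prox1, had counts in the inputs of every group.

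Electrons enter the respiratory chain at complex I, from NADH, or at complex II, from succinate. They pass through complex III to complex IV, which reduces oxygen, and complexes I, III and IV pump protons whose return through complex V drives ATP synthesis. Neurons depend heavily on this supply to restore ion gradients after firing. A small core of the subunits is encoded in mitochondrial DNA, so the nuclear genes described here must be expressed in step with another genome. m6A is a methyl mark on adenosines of mRNA, laid down mostly within a short sequence context of which GGACT is the best known form, commonly near stop codons, in 3′ untranslated regions and in long exons.

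These transcripts were short. The median annotated length of the 76 genes that could be tested for m6A over input was 1090 bases, against 3668 bases for 13568 tested genes matched to GENCODE vM39, with 1 annotated transcript taken per gene. Their median coding length was 441 against 1443 bases, and their median 3′ untranslated region 204.5 against 1461 bases. GGACT was searched in the sense strand of these transcripts only. It occurred in 53 of the 76 transcripts (69.7%) and in 12786 of the 13568 (94.2%), with a median of 1 copy against 4. The windows printed here belong to genes at the high and the low end of m6A over input, so that both ends of the results can be read beside their sequence. Each holds 25 transcript bases from GENCODE vM39 (GRCm39), 5′ to 3′, with GGACT in capitals. Only 1 window is printed per gene. Atp5h, Atp5j and Sdhb hold further matches that are not shown, for Atp5j also in the 5′ untranslated region.
Atp5h, 5′ untranslated region: ggcagaggaaGGACTtgggctcccg
Atp5j, 3′ untranslated region: ccagtcgtcaGGACTacagcttatt
Cox7b, 3′ untranslated region: cttagagactGGACTgtcaccaaac
Uqcrb, 5′ untranslated region: gtgtcctctaGGACTtacccagaag
Atp5g2, coding sequence: gcagggattgGGACTgtttttggga
Atp5g3, coding sequence: ccagagactaGGACTggagagggct
Sdhb, 3′ untranslated region: gcagtcttcaGGACTacatacaggt
Atp5k, the gene with the highest m6A over input, held no GGACT in its annotated transcript. A match is a description of the letters and not evidence of a methylated site, and these counts per gene do not locate the mark.

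In the hippocampus of PBS mice the genes spanned a wide range of levels. Levels are given as CPM, counts scaled to the library total with the TMM factors of the edgeR fit they belong to, per kilobase of annotated transcript, over the 4 input libraries of PBS mice of both times. Cox6c, a small nuclear subunit of complex IV, had the highest median, 587 (range 492 to 773). Atp5k, a small membrane subunit of ATP synthase, followed with 312 (231 to 413), and Cox4i1, a regulatory subunit of complex IV, with 208 (189 to 292). The ranges of Cox6c and Atp5k did not overlap, whereas those of Atp5k and Cox4i1 did. The catalytic β subunit gene Atp5b stood at 152 and Atp5o, of the stalk, at 147. Complex I ran from 121 for Ndufs5 to 3.80 for Ndufs6. A gene whose RNA is mostly a shorter isoform than the annotated one is understated on this scale.

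**Figure D1:**
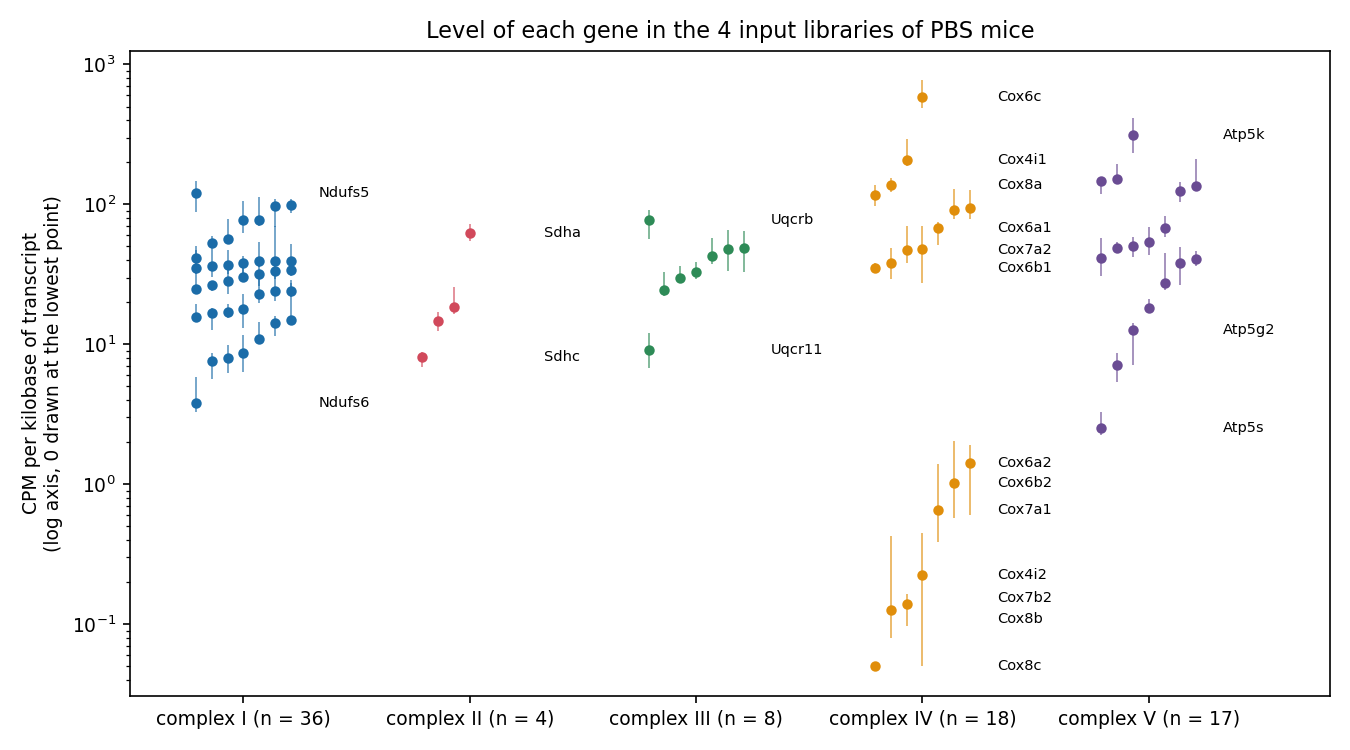
CPM per kilobase of transcript (log axis) for each of the 83 genes, grouped by complex, in the 4 input libraries of PBS mice. Points are medians and lines run from the lowest to the highest library. Within complex IV, 7 genes lie far below the rest, from Cox6a2 at 1.43 down to Cox8c, which had no counts and is drawn at the bottom.

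Complex IV is assembled with tissue-specific isoforms, and the hippocampal inputs held mainly one of each set. Cox4i1, the general isoform, had a median of 208 CPM per kilobase, and Cox4i2, the isoform known from lung, had 0.225. Cox6a1 had 68.1 against 1.43 for the muscle isoform Cox6a2, and Cox6b1 had 35.3 against 1.02 for the testis isoform Cox6b2. Cox7a2 and Cox7a2l had 47.2 and 48.0, with overlapping ranges, and the muscle isoform Cox7a1 had 0.656. Cox8a had 138 against 0.127 for Cox8b, which heart and skeletal muscle use. In 4 of these 5 sets every PBS input kept the general isoform above the other one by a wide margin, and in the Cox7a set both Cox7a2 and Cox7a2l stood above Cox7a1. Cox8c, a testis isoform, had 2 counts in the input and 2 in the m6A library of KA mouse 8 at 24 h and none elsewhere. The other low isoforms and Cox7b2 had at most 19 counts in an input library, too few to resolve their levels well. Cox4i2, Cox6a2, Cox6b2, Cox7a1, Cox7b2, Cox8b and Cox8c were therefore not tested for m6A over input, and 77 of the 83 genes were tested in input and 81 in m6A-bound RNA.

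The c ring of ATP synthase, which turns as protons pass, is built from 1 protein encoded by 3 genes. Atp5g1 had a median of 48.7, Atp5g3 of 40.6 and Atp5g2 of 12.8 CPM per kilobase. The ranges of Atp5g1 (44.6 to 54.2) and Atp5g3 (36.5 to 46.8) overlapped. Of the 4 subunits of succinate dehydrogenase, the flavoprotein gene Sdha had 62.2, the membrane anchor Sdhd 18.4, the iron-sulfur protein Sdhb 14.7 and the anchor Sdhc 8.09.

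At 24 h, most of the genes had lower input values in the 3 KA libraries than in the single PBS library, and none passed the test. In edgeR's quasi-likelihood fit, 0 of 77 genes had an adjusted p under 0.05, as had 0 of all 17644 genes (percent called 0). DESeq2 called 0 of the 77 as well. At an unadjusted p under 0.05 there were 17 of the 77, all lower in KA mice, where 4.24% of all genes were lower at that threshold. The fitted change was below 0 for 68 of the 77, where 34% of all genes were below 0. Their median log2 change was −0.42, against 0.27 over all genes. Under scaling by library size the median of all genes moved to −0.04 and that of the 77 to −0.74, so the distance between them, −0.68 or −0.70, was about the same. The 3 KA libraries were all lower than the PBS library for 55 of the 77, where 19.2% of all genes were, and all higher for 2, Atp5e and Atp5g2, where 21.2% of all genes were. All of this rests on 1 PBS library, whose own spread is unknown, and the spread in the test came from the other groups.

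**Figure D2:**
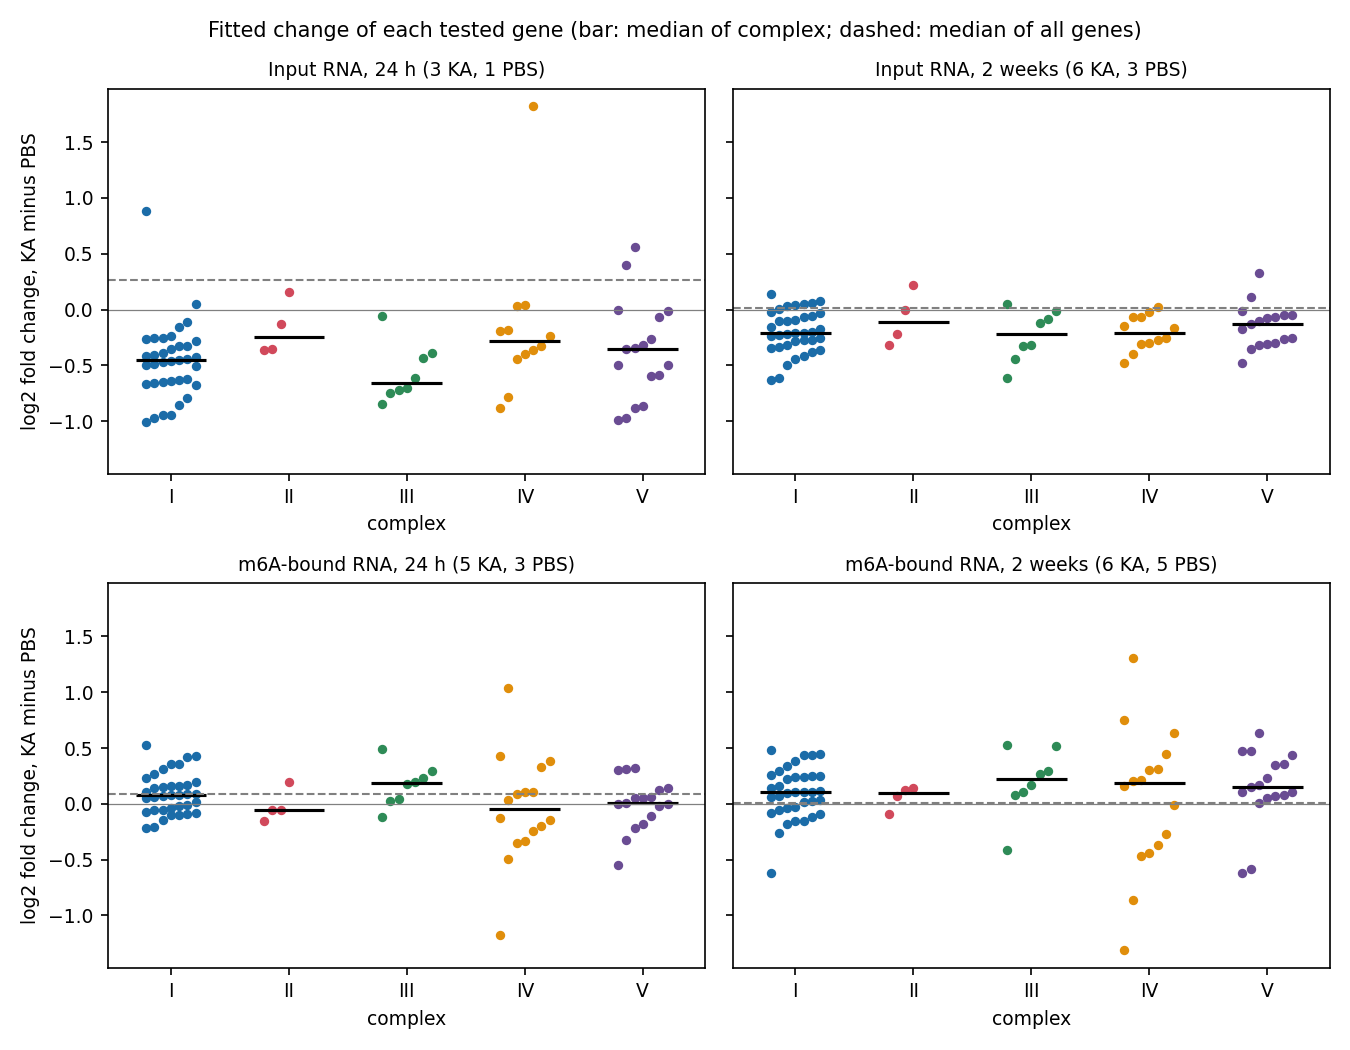
Fitted log2 change, KA minus PBS, of each tested gene by complex, in input RNA (upper row) and m6A-bound RNA (lower row) at 24 h and 2 weeks. Bars are medians of a complex and the dashed line is the median of all tested genes. In input at 24 h the medians of all 5 complexes lie below the dashed line at 0.27, and no gene in any panel passed an adjusted p of 0.05.

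By complex, the median log2 change of input at 24 h was −0.66 for complex III, −0.46 for complex I, −0.36 for complex V, −0.28 for complex IV and −0.24 for complex II. The genes with an unadjusted p under 0.05 were 11 of 36 in complex I, 3 of 8 in complex III and 3 of 17 in complex V, with none in complexes II and IV. All were lower, where 4.24% of all genes were lower at that threshold. Counts and medians differ in precision here, since complex II has only 4 genes.

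The smallest p belonged to Uqcr10, a small subunit of complex III, with 29.5 CPM in the PBS input and 16.1, 15.6 and 17.5 CPM in KA mice 67, 98 and 8. Its log2 change was −0.84 (SE 0.23, edgeR adjusted p = 0.323). Uqcrfs1, the Rieske iron-sulfur protein of the same complex, had 71.9 CPM in the PBS input and 38.4, 37.4 and 52.6 CPM in the KA inputs (log2 change −0.74, SE 0.23, adjusted p = 0.373). The KA libraries of Uqcr10 lay close together and well under the PBS library, while in Uqcrfs1 mouse 8 lay between the other KA mice and the PBS mouse. In complex I, the accessory subunit Ndufa6 had 67.0 CPM against 28.6, 30.7 and 44.6 CPM (log2 change −0.95, SE 0.28, adjusted p = 0.372). In ATP synthase, the stalk subunit gene Atp5j had 163 CPM against 67.4, 64.5 and 114 CPM (log2 change −0.99, SE 0.31, adjusted p = 0.376). Atp5k had 153 CPM against 83.3, 77.2 and 74.4 CPM (log2 change −0.97, SE 0.32, adjusted p = 0.396). None of these 5 genes passed, although in each the PBS library was the highest of the 4.

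**Figure D3:**
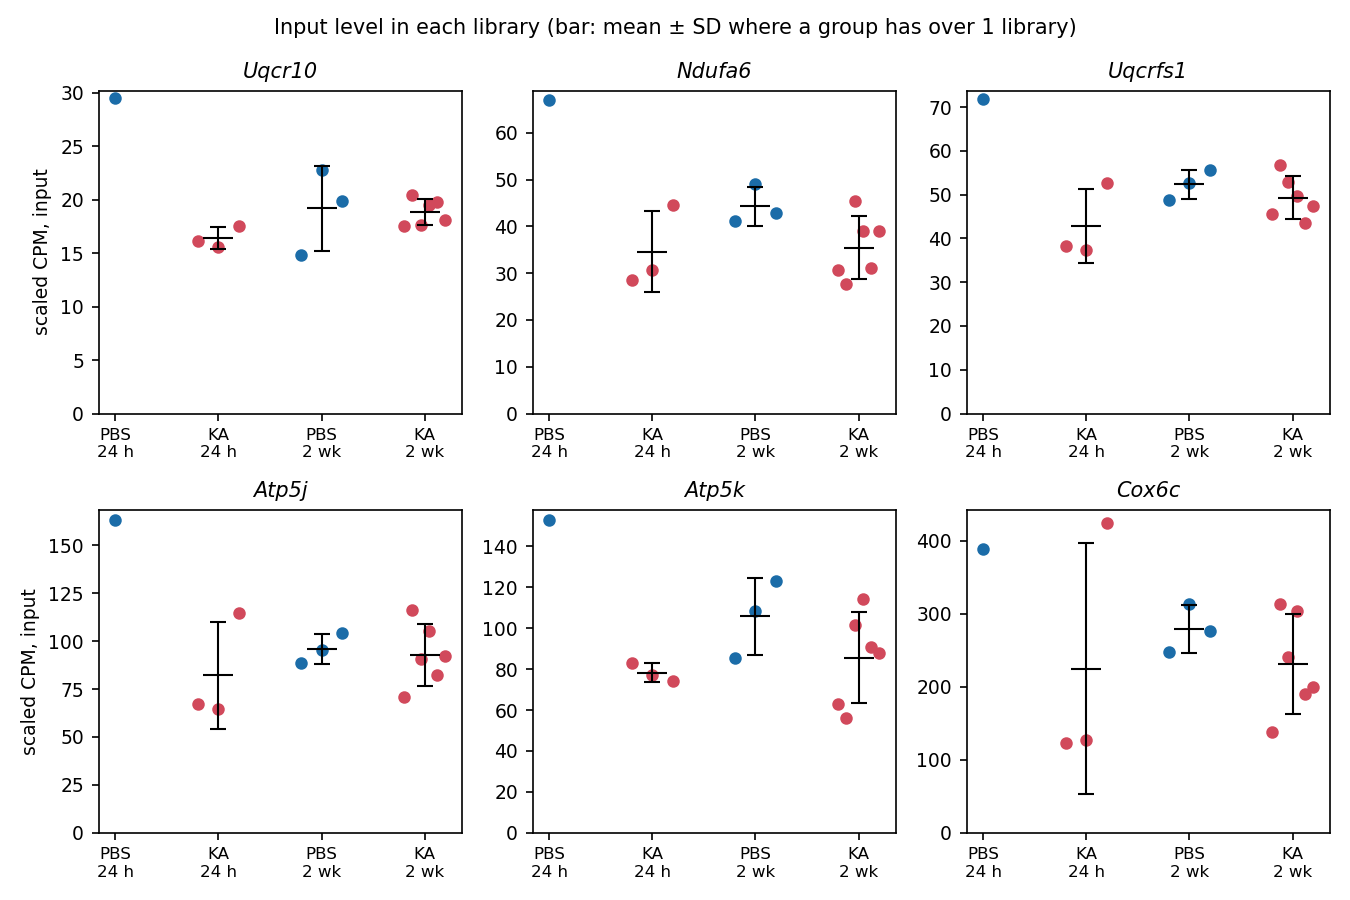
Scaled CPM in each input library of 6 genes, with PBS libraries in blue and KA libraries in red, and with the mean and SD drawn where a group has more than 1 library. The single PBS library at 24 h is the highest of the 13 libraries in all panels but that of Cox6c, where KA mouse 8 (424 CPM) lies above it and well above KA mice 67 and 98.

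The succinate dehydrogenase genes, whose enzyme serves both the tricarboxylic acid cycle and the chain, had no gene at an unadjusted p under 0.05. Sdha had 224 CPM in the PBS input and 191, 206 and 125 CPM in the KA inputs (log2 change −0.36, SE 0.32, adjusted p = 0.759). Sdhb had 58.4 CPM against 45.8, 42.1 and 49.1 CPM (−0.35, SE 0.31, adjusted p = 0.759). Sdhc had 25.8 CPM against 29.7, 33.3 and 23.7 CPM and Sdhd 20.7 CPM against 18.3, 20.5 and 17.9 CPM. The KA values of Sdhc lay on both sides of the PBS value, and those of the other 3 genes lay below it. Among the c-subunit genes, Atp5g1 had 29.5 CPM against 26.2, 23.9 and 38.0 CPM, Atp5g3 had 46.2 CPM against 41.3, 28.3 and 41.1 CPM, and Atp5g2, the lowest of the 3, had 9.07 CPM against 17.6, 10.4 and 12.1 CPM. Atp5g3 was below the PBS input in all 3 KA inputs and Atp5g2 above it, and Atp5g1 lay on both sides.

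Whether any gene passed depended on KA mouse 8 and on the method. Without this mouse 6 of 76 tested genes were lower in KA mice at an adjusted p under 0.05, when 180 of all genes (1.18%) were called. They were Cox6c (log2 change −1.64), Cox7b (−1.53), Ndufv2 (−1.40), Atp5j (−1.31), Ndufa6 (−1.18) and Uqcrfs1 (−0.93). Cox6c had 389 CPM in the PBS input and 123, 127 and 424 CPM in KA mice 67, 98 and 8, so mouse 8 was nearer to the PBS mouse than to the other KA mice. Limma voom with sample quality weights called 13 of the 77, all lower, with KA mouse 8 kept in, where 2.79% of all genes were called lower. Its log2 changes for Cox6c and Atp5j, −1.58 and −1.28, lay near the −1.64 and −1.31 found without mouse 8. In the edgeR fit with mouse 8 they were −0.79 and −0.99. The weight that voom gave to mouse 8 was not examined, so its calls are not taken as independent of leaving that mouse out. KA mouse 8 is also the only one of the 4 libraries whose column carries the prefix Input. A fit of the libraries without a prefix, chosen after the data were seen, called 7 of 76, all lower, where 0.924% of all genes were called lower, with a median of −0.55 against 0.03 over all genes. With the library set as a block 0 were called, 28 were lower at an unadjusted p under 0.05, where 5.35% of all genes were, and the median was −0.52 against 0.05.

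The reference side of this comparison was itself extreme. The 83 genes made up 0.641% of the counts in the PBS input of 24 h, 0.463, 0.477 and 0.493% in the 3 PBS inputs of 2 weeks, and 0.353 to 0.376% in the KA inputs of 24 h. The KA inputs of 24 h therefore lay below all 4 PBS inputs in this share, while the 24 h PBS input lay above every other input. With the PBS mice of both times taken as 1 control group, the median log2 change of the tested genes was −0.34 against 0.10 over all genes, 14 were lower at an unadjusted p under 0.05, where 9.35% of all genes were, and 0 were called by edgeR. In bulk tissue, fewer cells of a type and less RNA per cell cannot be told apart. Markers of cell types were read in the same fit, and none of them passed the test. The summed level of the 6 inhibitory neuron markers was 497 CPM in the PBS input and 329 to 427 CPM in the KA inputs, and 6 of 6 had a fitted change below 0. The 6 blood markers summed to 7.42 CPM against 12.5 to 52.9 CPM, with 6 of 6 above 0. The 6 astrocyte markers summed to 655 CPM against 474 to 2245 CPM, with 5 of 6 above 0. The 6 endothelial markers summed to 786 CPM against 463 to 1448 CPM, with 6 of 6 above 0 and 3 at an unadjusted p under 0.05, and the 6 choroid plexus markers to 250 CPM against 95.9 to 545 CPM, with 6 of 6 above 0. The 6 oligodendrocyte markers summed to 2046 CPM against 859 to 1883 CPM, with 5 of 6 below 0. Excitatory neuron markers were below 0 for 3 of 6 and above 0 for the rest, and microglial markers were above 0 for 4 of 6. The excitatory marker Neurod6 had a log2 change of −1.30 (SE 0.22, edgeR adjusted p = 0.173). Its unadjusted p, 3.93e-05 by edgeR, was the smallest of all these markers. The 3 KA sums lay on both sides of the PBS sum for astrocyte, endothelial and choroid plexus markers. No marker of these lists was at 0 in a whole group, and their part in the result was not tested.

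Genes of related processes were read in the same fit. Of 17 genes of the tricarboxylic acid cycle and pyruvate dehydrogenase, which feed electrons to the chain, 0 were called at 24 h (median −0.43). An unadjusted p under 0.05 was found for 7, all lower and with Pdha1 and Pdhb among them, where 4.24% of all genes were lower. Of 42 tested assembly factors of the complexes, 0 were called and 4 were lower at the unadjusted threshold (median −0.19). Of 20 glycolysis genes, 0 were called, with 2 higher and 1 lower at that threshold (median −0.07). The 13 protein genes of mitochondrial DNA had a median of 0.52, but their summed level was 16408 and 17690 CPM in 2 KA inputs, 56222 CPM in the PBS input and 208410 CPM in the third KA input, that of mouse 8. The nuclear genes were thus lower in all 3 KA inputs by share, and the mitochondrial ones in only 2 of the 3.

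At 2 weeks the difference in input was smaller and again no gene passed. edgeR called 0 of the 77 (0 of 17644, percent called 0), and DESeq2 and voom also called 0 of the 77. An unadjusted p under 0.05 was found for 2 genes, both lower, where 3.67% of all genes were lower at that threshold. The fitted change was below 0 for 65 of the 77, where 46.5% of all genes were below 0, with a median of −0.20 against 0.01. The share of the 83 genes in the counts was 0.463 to 0.493% in PBS mice and 0.338 to 0.506% in KA mice, so the groups overlapped. All PBS inputs came from the library set without a prefix, as did KA mice 42, 21 and 5, while KA mice 7, 9 and 6 came from the other set. Within the set without a prefix, chosen after the data were seen, edgeR called 0 of 76, with 19 at an unadjusted p under 0.05, where 17.4% of all genes were, and a median of −0.31 against 0.0037 over all genes. With the set as a block 0 were called, 22 had an unadjusted p under 0.05, where 17.7% of all genes did, and the median was −0.33 against −0.08. Without PBS mouse 3 the median was −0.10, with no gene at that threshold, and without KA mouse 42 it was −0.11. All 6 KA inputs lay below all 3 PBS inputs for Ndufs1 and Uqcrc2, which are 2 of 77, where 3.41% of all genes did.

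Both genes below the unadjusted threshold were of complex III. Uqcrb, a small accessory subunit, had 31.4, 51.1 and 37.8 CPM in the PBS inputs and a lowest, median and highest value of 21.2, 24.9 and 32.6 CPM in the KA inputs. The groups overlapped in 1 KA library, and the log2 change was −0.61 (SE 0.22, adjusted p = 0.561). Uqcrc2, a core protein, had 68.4, 81.2 and 70.1 CPM in PBS mice and 37.1, 58.1 and 63.6 CPM as the lowest, median and highest in KA mice (log2 change −0.45, SE 0.17, adjusted p = 0.564). Uqcrc2 did not overlap between groups and still did not pass. Sdhd had 23.6, 32.5 and 22.6 CPM in PBS mice and 18.9, 21.1 and 23.2 CPM as the lowest, median and highest in KA mice, which overlapped in 1 KA library (log2 change −0.31, SE 0.15, adjusted p = 0.621). At this time all 13 genes of mitochondrial DNA had a fitted change below 0 (median −0.45, 0 called), while 16 of 20 glycolysis genes were above 0 (median 0.16, 0 called). Mitochondrially encoded RNA made up 3.44 to 5.29% of the counts in PBS inputs and 1.41 to 6.28% in KA inputs, so the groups overlapped. Astrocyte markers were above 0 for 6 of 6, with summed levels of 723 to 997 CPM in PBS and 1197 to 3533 CPM in KA mice. Excitatory neuron markers were above 0 for 5 of 6, with sums of 1224 to 2040 CPM in PBS and 1441 to 3377 CPM in KA mice, and microglial markers for 5 of 6, with 85.5 to 106 CPM and 91.0 to 239 CPM. Each of these 3 lists had 2 genes higher at an unadjusted p under 0.05, and none of their genes passed. Inhibitory neuron markers were above 0 for 4 of 6, with overlapping sums, as were choroid plexus markers, and oligodendrocyte, endothelial and blood markers for 5 of 6 each, also with overlapping sums. Only the astrocyte sums did not overlap between groups, among the lists given here. Their part was not tested.

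In m6A-bound RNA, none of the 81 tested genes passed edgeR's test between KA and PBS mice at either time. Limma voom called 1, Cox6a1 at 24 h, where it called 7.80% of all genes. At 24 h edgeR called 0 of 81, where 0.178% of all genes were called, with none at an unadjusted p under 0.05, where 6.95% of all genes were, and DESeq2 called 0. The median log2 change was 0.05 against 0.09 over all genes. Leaving out PBS mouse 1 moved it to 0.39, against 0.18 over all genes. The share of the 83 genes in the counts was 0.358 to 0.503% in the m6A libraries whose column name has prefix 4, 0.542 to 0.751% in those with prefix 5, and 0.424 to 0.853% in those with prefix 3, whose range overlaps both others. PBS mice 71 and 73 belong to the set with prefix 4, PBS mouse 1 to that with prefix 5, and KA mice 67, 98 and 8 of 24 h to that with prefix 3. Within the set with prefix 4, which holds 2 mice of each group and was singled out after the data were seen, the median was −0.15 against −0.0037 over all genes and edgeR called 0. With the set as a block the median was −0.08 against 0.04, so its sign was not settled.

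Cox6a1, an accessory subunit of complex IV, was the only one of the 81 genes whose 5 KA libraries at 24 h all lay below the 3 PBS libraries, where 1.73% of all genes did. It had 51.6, 50.7 and 65.2 CPM in PBS mice 71, 73 and 1, and 41.7, 37.4, 36.7, 33.4 and 48.6 CPM in KA mice 67, 98, 97, 79 and 8. The log2 change was −0.50 (SE 0.24, edgeR adjusted p = 0.713). Limma voom gave an adjusted p of 0.049, in a fit that called 7.80% of all genes. Within the set with prefix 4, PBS mice had 51.6 and 50.7 CPM and KA mice 36.7 and 33.4 CPM. In input at 24 h the same gene had 29.5 CPM in the PBS mouse and 34.1, 32.0 and 25.2 CPM in KA mice, which overlapped.

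At 2 weeks edgeR called 0 of 81 genes in m6A-bound RNA, where 0.00573% of all genes were called, and DESeq2 called 0. An unadjusted p under 0.05 was found for Atp5g1 (log2 change 0.47) and Uqcr10 (0.51), which were higher, and for Ndufb8 (−0.62) and Atp5sl (−0.58), which were lower, each with an adjusted p of 0.949. Of all genes 2.24% were higher and 1.83% lower at that threshold. The number of genes at the unadjusted threshold was 0 without PBS mouse 4 and 1 without KA mouse 6 or without KA mouse 7. The median change was 0.11 against 0.01 over all genes, and −0.05 against −0.02 with the library set as a block. The KA change at 2 weeks differed from that at 24 h for 0 of the 81 genes by edgeR's test of the difference, where 0.00573% of all genes differed. Only 2 of them, Ndufb8 and Cox6a1, had an unadjusted p under 0.05, where 2.45% of all genes did.

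m6A over input, compared within the 13 mice that had both libraries, differed between the genes. edgeR with mouse as a block called 26 of 76 genes, where 30.2% of all genes were called. Of the 26, 22 were higher in m6A-bound RNA and 4 lower, where 15.6% of all genes were higher and 14.6% lower. The median log2 ratio was 0.14 against −0.03 over all genes. Scaling moved the split. Scaling by library size alone gave 39 higher and 0 lower, where 36.8% of all genes were called and 3.25% called lower. The same without the 3 genes above 5% of a library, chosen after the data were seen, gave 18 higher and 12 lower, where 30.8% of all genes were called and 19.9% called lower. The distance of the 76 genes from the median of all genes was 0.16 on the log2 scale under each of these scalings. Of the 76 genes, 18 were called higher in every one of them, while none was called lower in every one. The share of all genes called higher, or lower, in every scaling is not given here. Whether these counts exceed those among all genes therefore cannot be told. The ratio also carries differences between the assays, since the immunoprecipitation protocol names polyA RNA while input libraries came from total RNA, and the amount of starting RNA differed. By the column names no library set held both m6A and input libraries. Assay and library set therefore cannot be told apart, and mouse as a block does not remove this.

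Of the 5 genes with the smallest p, 3 encode subunits of ATP synthase. Atp5k, which helps ATP synthase form dimers, had the highest ratio (log2 1.57, SE 0.14, adjusted p = 9.98e-07). Its ratio ran from 0.30 through a median of 1.69 to 2.32 and was above 0 in 13 of 13 mice. Atp5h, a stalk subunit, had a log2 ratio of 0.99 (SE 0.09, adjusted p = 1.02e-06), with 0.54, 0.93 and 1.75 as the lowest, median and highest mouse. Atp5j, another stalk subunit, had 0.95 (SE 0.10, adjusted p = 3.69e-06), with 0.34, 0.89 and 1.53. The ratios of these 3 genes were above 0 in each of 13 mice, KA and PBS alike. The other 2 were Ndufv2, an iron-sulfur subunit at the NADH end of complex I (log2 ratio 0.67, SE 0.10, adjusted p = 9.48e-05), and Uqcrb (0.86, SE 0.13, adjusted p = 1.56e-04). Both lay above 0 in 12 of 13 mice, with lowest values of −0.06 and −0.03.

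**Figure D4:**
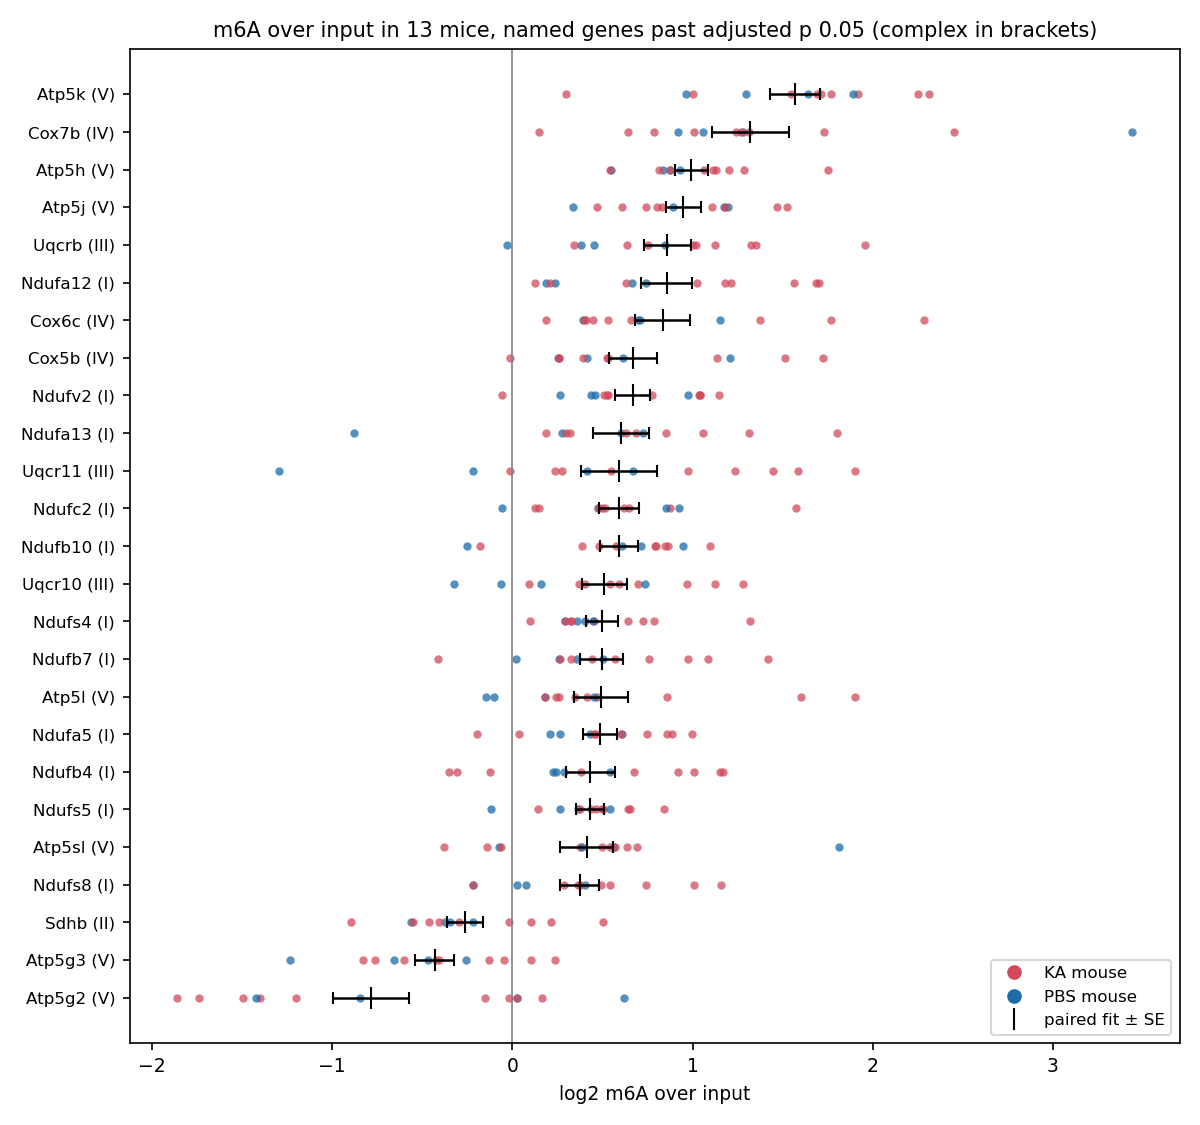
log2 m6A over input of 25 of the 26 genes with an adjusted p under 0.05, in each KA mouse (red) and PBS mouse (blue), with the paired fit and its SE in black. Atp5k has the highest fit at 1.57 and Atp5g2 the lowest at −0.79, and 1 PBS mouse lies at 3.44 for Cox7b.

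Cox7b, a small subunit of complex IV, had the second highest ratio (log2 1.32, SE 0.21, adjusted p = 4.55e-04). It ran from 0.15 in KA mouse 42 at 2 weeks through a median of 1.24 to 3.44 in PBS mouse 4 at 2 weeks. PBS mouse 4 was far from the rest, since the next highest value was 2.45 in KA mouse 6. In all, 7 of the 76 genes were higher in every mouse (Atp5h, Atp5j, Atp5k, Cox6c, Cox7b, Ndufa12 and Ndufs4), where 2.65% of all genes were, and none was lower in every mouse, where 1.91% were.

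Among the 4 genes called lower were 2 of the 3 c-subunit genes and Sdhb. Atp5g2 had a log2 ratio of −0.79 (SE 0.21, adjusted p = 0.00989), with −1.86, −0.84 and 0.62 as the lowest, median and highest mouse. It was below 0 in 9 of 13 mice only. Atp5g3 had −0.43 (SE 0.11, adjusted p = 0.00564) and was below 0 in 11 of 13 mice. The third c-subunit gene, Atp5g1, had −0.06. Cox7a2 had the third lowest ratio (−0.43, SE 0.21) and did not pass (adjusted p = 0.135). Sdhb had −0.26 (SE 0.10, adjusted p = 0.04997, below 0 in 10 of 13 mice), at the edge of the threshold. Sdha (−0.25, adjusted p = 0.0504), Sdhd (−0.30, 0.0522) and Sdhc (−0.11, 0.413) did not pass. Under scaling by library size alone none of these genes was called, with log2 ratios of −0.57 for Atp5g2, −0.22 for Atp5g3 and −0.05 for Sdhb, and Sdhc turned to 0.10. Other scalings moved the Sdh genes the other way. Without mitochondrial genes, edgeR's adjusted p was 0.0475 for Sdha, 0.0469 for Sdhb and 0.0498 for Sdhd. Scaled by library size without the genes above 5% of a library, it was 0.0182, 0.0325 and 0.0212. Sdhc passed under neither.

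By complex, 11 of 36 genes of complex I were higher, 3 of 8 higher in complex III, 3 of 11 higher in complex IV, and 5 of 17 higher and 2 lower in complex V. Complex II had 1 of 4 lower. Over all genes 15.6% were called higher and 14.6% lower. Of 13 genes of mitochondrial DNA, 5 were higher and 0 lower (median 0.49). Of 42 assembly factors 13 were higher and 2 lower (median 0.07). Of 17 genes of the tricarboxylic acid cycle and pyruvate dehydrogenase 2 were higher and 2 lower (median 0.01). Of 20 glycolysis genes 0 were higher and 5 lower (median −0.19). No difference between these lists was tested.

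In the 9 KA mice alone, chosen after the data were seen, 23 of 76 genes were called, where 18.1% of all genes were. In the 4 PBS mice alone 2 of 78 were, Atp5h and Atp5k, where 1.10% of all genes were called, so fewer genes passed in the smaller group among all genes as well. Uqcr11, a small subunit of complex III, had a log2 ratio of 0.59 in all mice (SE 0.21, adjusted p = 0.0425) and −0.10 in PBS mice alone (adjusted p = 0.878). Its ratios in PBS mice 1, 2, 3 and 4 were 0.41, 0.67, −0.22 and −1.30, on both sides of 0. The difference between KA and PBS mice was tested directly. At 24 h 0 of 76 genes differed by edgeR (0 of 14640 genes, percent called 0), and 4 had an unadjusted p under 0.05, where 0.663% of all genes were higher at that threshold. They were Ndufa12 (difference of log2 ratios 1.47, SE 0.42), Uqcr11 (1.23), Cox5b (1.00) and Ndufv3 (0.86), each with an adjusted p of 0.9999. The median difference over the 76 genes was 0.34 against −0.03, and 62 of them were above 0, where 53.6% of all genes were below 0. This rests on 1 PBS mouse, and on the same input libraries as the comparison of input at 24 h, so it is not a separate observation. The m6A libraries of KA mice 67, 98 and 8 have prefix 3 and that of PBS mouse 1 has prefix 5. Treatment and m6A library set therefore cannot be told apart in this comparison.

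Ndufa12, an accessory subunit of complex I, had log2 ratios of 1.68, 1.70 and 1.56 in KA mice 67, 98 and 8, and of 0.19 in PBS mouse 1. Its KA mice at 24 h lay close together and above that mouse, whose m6A library is of another set. At 2 weeks its ratios were 0.74, 0.66 and 0.23 in PBS mice and ran from 0.12 to 1.21 in KA mice, which overlapped. At 2 weeks 0 of 76 genes differed in ratio between KA and PBS mice by edgeR (percent called 0). Uqcrb and Uqcr11 were higher at an unadjusted p under 0.05 (difference of log2 ratios 0.79 for each), and Sdhc (−0.59) and Ndufb8 (−0.80) were lower, where 2.23% of all genes were higher and 2.34% lower, each of the 4 with an adjusted p of 0.864. The median difference was 0.09 against −0.03 over all genes.

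m6A over input was lower in genes with a longer coding sequence. Across the 76 genes Spearman's rho was −0.44, against −0.09 across all matched genes, which is a description over genes that share the same libraries. For transcript length the values were −0.21 and −0.08, and for the length of the 3′ untranslated region −0.08 and −0.04. For the number of GGACT copies they were −0.18 and −0.12, and for GGACT per kilobase −0.08 and −0.08. For the percentage of G and C bases they were −0.04 and −0.29. Coding length thus had the strongest of these values across the 76 genes, but not across all matched genes. Of the 13 genes with a coding sequence under 300 bases 38.5% were called higher (36.9% of 195 genes in all), of 42 with 300 to under 600 bases 33.3% (22.7% of 1291), of 12 with 600 to under 1200 bases 25% (14.8% of 3798), and of 9 with 1200 or more bases 0% (13.5% of 8284). The 22 genes called higher had a median coding length of 376.5 bases, the 50 that did not pass 508.5 bases and the 4 called lower 645 bases. GGACT occurred in the transcripts of 14 of the 22, of 35 of the 50 and of 4 of the 4.

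**Figure D5:**
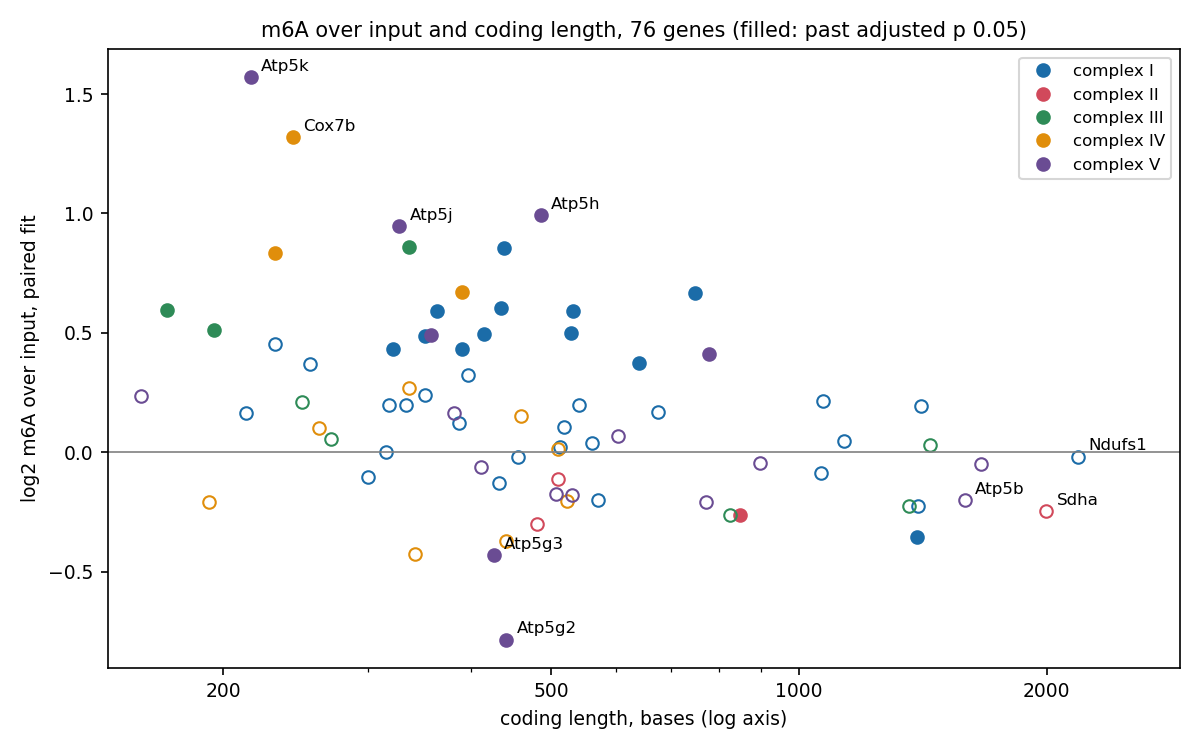
Fitted log2 m6A over input of the 76 genes against their coding length in bases (log axis), coloured by complex, with filled points for an adjusted p under 0.05. Among the genes with the highest ratios are short ones such as Atp5k and Cox7b, and no gene with 1200 or more coding bases was called higher.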

How the data were processed

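Hippocampal input and m6A-immunoprecipitated RNA were prepared with the SMARTer Stranded Total RNA-Seq Kit v2, per the labels. Counts were deposited unnormalized, by gene symbol, for each of 4 sequencing lanes, in 15 files. The build is mm10 by the submitters' processing notes. For aligner, counting program and strand handling, each is not given in the sources used here. Reads of genes that overlap, or that have processed pseudogenes as many OXPHOS genes do, may have been split. Lanes were summed to 35 libraries (140 columns), and 8 further columns that match no sample were not used. Columns with prefix 3, 4 or 5 were read as m6A. No 2 libraries of a group agreed within sampling noise (lowest chi-square per degree of freedom over 59 pairs, 5.12).

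Input and m6A comparisons used edgeR 4.0.16 in R 4.3.3, with TMM scaling, filterByExpr, a robust quasi-likelihood fit over 4 groups and Benjamini-Hochberg adjustment over all genes at 0.05. The CPM shown use the TMM factors of these fits, so input and m6A levels are scaled apart, and the ratios of single mice use those of the paired fit. m6A over input used mouse as a block. Mouse numbers pair libraries because both came from the same animal by the labels, and the correlation of their deviations ran from −0.03 to 0.88 (median 0.29, 12 mice). Alternatives were DESeq2 1.42.0, limma 3.58.1 voom, other scalings and filters, and each library left out in turn. The scripts were tested on simulated data. Genes given with all values were the called genes with the smallest p (up to 5 per direction), the 3 highest and lowest ratios, the isoform sets, c-subunit and Sdh genes, and others were picked after their values were seen. The result of 1 called gene is not reported here. Members and lists were chosen with earlier results of these data known. Intervals are not given, a library without a count allows up to 3 counts, and p-values measure the spread between mice. Transcript lengths and sequences came from GENCODE vM39 (Python 3.11.15, pandas 2.3.3, matplotlib 3.10.9).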

Additional observations from a re-analysis of the deposited data

Results flagged for a closer look

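Single libraries that stood far from the rest of their group by Dixon's test were looked for in 116 sets of values. They were found in 8 of the 116, which is close to the about 1 in 20 that chance alone gives. PBS mouse 4 at 2 weeks had 2 of them in m6A-bound RNA. Its Atp5sl level was 40.1 CPM (13.9 to 17.7 CPM in the other 4 PBS libraries) and its Cox7b level 1033 CPM (64.0 to 254 CPM). KA mouse 8 at 24 h had 3 in m6A-bound RNA, with Atp5l at 43.6 CPM (10.9 to 17.2 CPM in the other 4 KA libraries), Cox7b at 328 CPM (59.2 to 106 CPM) and Ndufs4 at 113 CPM (47.7 to 64.6 CPM). In m6A-bound RNA of KA mice at 2 weeks, Cox6c was 1172 CPM in mouse 6 (218 to 497 CPM in the other 5). In input of KA mice at 2 weeks, Ndufc2 was 43.4 CPM in mouse 7 (22.9 to 27.4 CPM) and Ndufs5 was 71.9 CPM in mouse 21 (41.2 to 52.7 CPM).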

How the results depend on the processing

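For input at 24 h, 0 of the genes were called by edgeR, 13 by voom with quality weights (5.99% of all genes), 7 when only libraries without a column prefix were used (chosen after the data were seen, 2.32%), and 0 to 6 with each KA library left out in turn (1.18% for the 6). Leaving out the only PBS input of 24 h gives no value, for input or for the change of ratio at 24 h. For m6A-bound RNA at 24 h voom called 1 gene (7.80% of all genes). For m6A over input, 26 genes were called by edgeR with mouse as a replicate block (30.2% of all genes), 21 without the block (15.4%), 43 by voom (46.7%), 10 in mice of m6A library set 3 alone (2.44%), 2 in PBS mice alone (1.10%), and 22 to 30 with each mouse left out in turn (23.1 to 32.9%). Uqcr11 turned from 0.59 to −0.10 on the log2 scale in PBS mice alone, and the cause was not tested. Its ratio ran from −1.30 to 0.67 in those mice. Of the values of 25 called genes under 25 alternatives, 533 stayed past the threshold in the same direction, 91 lost it and 1 changed sign, while Atp5h and Atp5k were called in all 25. These genes were taken because they were called, and the alternatives reuse the same libraries, so these counts are not separate support. Sdhb lost its call in 16. Depth limits the low isoforms of complex IV.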
